A study of Homo sapiens with 12 samples.

Results

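The BCL2 family decides, at the mitochondrial outer membrane, whether a stressed cell lives or dies. Pro-survival members (BCL2, BCL2L1, which encodes BCL-XL, and MCL1) hold back the effectors BAX and BAK1, which can open pores in that membrane and release cytochrome c to start the caspases. BH3-only members (BCL2L11 or BIM, PMAIP1 or NOXA, BBC3 or PUMA, BID and BIK) are switched on by stress and occupy the groove of the pro-survival proteins, and BIM, PUMA and the cut form of BID can also act on the effectors. These 10 genes were taken by their symbol from the 56609 gene symbols measured, and 9 of them passed the filter on low values. BIK did not, and only its reads are given.

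The study concerns resistance of Ewing sarcoma, a bone tumour of the young in which the fusion protein EWS-FLI1 acts as the driver, to a small-molecule EWS-FLI1 inhibitor. The inhibitor keeps EWS-FLI1 from binding RNA helicase A. Total RNA was sequenced from 4 groups of 3 libraries each, made from the Ewing sarcoma lines A4573 and TC-71. The groups were A4573-R (the resistant line, in the inhibitor), A4573 parental (in DMSO, the solvent), TC-71-R (the resistant line, in the inhibitor) and TC-71 parental (in DMSO). The labels give doses of 650 uM for A4573 and 400 uM for TC-71, a unit that looks high for a cell culture dose and was taken as written. Resistance and the presence of the compound cannot be told apart in this design, since no resistant library was made without it and no parental library with it. Separate cultures are not stated for the 3 libraries of a group, nor is the number of resistant clones. The p-values therefore reflect how far libraries of a group vary, and part of that may be technical.

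Named genes held 44.0 to 62.1 M reads per library (M, 1000000 reads). Of 10 Ewing sarcoma markers, 8 had at least 1 CPM (counts per 1000000 reads) in every library. CCK, a neuropeptide gene, differed between the lines. It averaged 207 CPM in A4573-R and 68.0 CPM in A4573 parental, but 0.308 CPM in TC-71-R and 0.280 CPM in TC-71 parental. The summed levels below include CCK, which adds to them almost only in the A4573 groups. CD99, the surface marker of the tumour, was listed at no more than 0.0145 CPM in any library. CD99 has 2 entries in the files, and if reads that match both were not counted its level is too low, so this value does not show that the marker is absent. The summed level of the 10 markers was 563 to 586 CPM in A4573-R, 396 to 411 CPM in A4573 parental, 699 to 717 CPM in TC-71-R and 568 to 577 CPM in TC-71 parental. Of 8 markers of blood, vessel, epithelial and liver cells, 6 stayed under 1 CPM in every library, and KRT5 was at 0 in all. Their summed level was 2.24 to 2.70 CPM in A4573-R, 1.02 to 1.34 CPM in A4573 parental, 1.62 to 1.67 CPM in TC-71-R and 2.63 to 2.81 CPM in TC-71 parental.

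The RefSeq promoters (GRCh38.p14, 250 bases before to 50 after the start site, so 300 bases) were in the table for 8 of the 10 genes. Of these, 4 held at least 1 of 5 short motifs of factors known to act on BH3-only genes or on stress genes, and these 4 are shown so that the matches can be read in place. The motifs, searched on both strands, were the CRE core TGACGT, the ATF4-CEBP composite site TGATGCAA, the AP-1 site TGAGTCA, the E-box CACGTG, which reads the same on both strands, and the FOXO site TGTTTAC. Capitals mark the matches.
PMAIP1, chr18:59899746-59900045, plus strand: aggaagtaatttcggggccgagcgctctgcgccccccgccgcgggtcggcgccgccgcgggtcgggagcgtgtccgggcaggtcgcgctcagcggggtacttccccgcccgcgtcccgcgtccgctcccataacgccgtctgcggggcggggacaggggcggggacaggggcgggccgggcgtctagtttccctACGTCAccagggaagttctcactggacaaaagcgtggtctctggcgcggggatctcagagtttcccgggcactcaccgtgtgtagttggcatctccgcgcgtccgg
BBC3, chr19:47232618-47232917, minus strand: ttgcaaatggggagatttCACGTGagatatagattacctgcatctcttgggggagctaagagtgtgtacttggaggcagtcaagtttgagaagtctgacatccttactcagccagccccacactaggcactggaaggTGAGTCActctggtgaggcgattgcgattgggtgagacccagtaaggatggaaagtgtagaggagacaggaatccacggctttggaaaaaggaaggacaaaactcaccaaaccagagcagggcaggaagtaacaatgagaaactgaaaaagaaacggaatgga
BAX, chr19:48954625-48954924, plus strand: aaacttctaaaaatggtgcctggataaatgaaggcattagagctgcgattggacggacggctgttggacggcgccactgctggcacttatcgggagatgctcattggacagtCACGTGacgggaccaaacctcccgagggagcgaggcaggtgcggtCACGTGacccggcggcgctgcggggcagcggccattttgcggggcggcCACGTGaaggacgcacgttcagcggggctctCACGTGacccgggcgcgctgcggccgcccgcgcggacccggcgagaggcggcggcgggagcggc
BCL2L11, chr2:111120664-111120963, plus strand: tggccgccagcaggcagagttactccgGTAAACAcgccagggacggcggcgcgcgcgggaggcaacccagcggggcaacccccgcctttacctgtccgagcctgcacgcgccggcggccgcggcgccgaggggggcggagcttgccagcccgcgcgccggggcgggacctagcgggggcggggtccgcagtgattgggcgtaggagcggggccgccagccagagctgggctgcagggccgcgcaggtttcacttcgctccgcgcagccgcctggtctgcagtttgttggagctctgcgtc

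Positions count from the start site, with bases before it negative. PMAIP1 had the reverse complement of the CRE core at -56. BBC3 had an AP-1 site at -113 and an E-box at -232. BAX had 4 E-boxes, at -138, -93, -45 and -14. BCL2L11 had the reverse complement of the FOXO site at -223, before a start site that lies 1536 bases from the 5′ end of the gene in GENCODE release 29. The promoters of BCL2, BCL2L1, BAK1 and BID held none of the 5 motifs within this window. Among all 35097 promoters in the table, the CRE core was in 7.98%, the composite site in 0.866%, the AP-1 site in 4.95%, the E-box in 7.25% and the FOXO site in 3.43%. The share of promoters with any of the 5 motifs was not computed. The count of member promoters with a match thus has no background beside it. A match is a description of the letters and not evidence of binding.

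In A4573-R against A4573 parental, 5 of the 9 tested members passed the test, 4 higher (BAX, BAK1, PMAIP1 and BBC3) and 1 lower (BCL2). In TC-71-R against TC-71 parental, 8 passed, 2 higher (MCL1 and BAX) and 6 lower (BCL2, BCL2L1, BAK1, BCL2L11, PMAIP1 and BBC3). The test was limma on log2(CPM + 1) over all 14335 tested genes, with a Benjamini-Hochberg adjusted p under 0.05. By the same rule 72.5% of all tested genes changed in A4573-R and 78.5% in TC-71-R, with 38.3% higher and 34.1% lower in A4573-R and 38.8% higher and 39.6% lower in TC-71-R. The shares of members called, 5 of 9 and 8 of 9, are thus not far from the background. Libraries of the groups did not overlap for 5 members in A4573-R (74.6% of tested genes) and for 8 in TC-71-R (81.1%). Changes of 2-fold or more on the log2(CPM + 1) scale were rarer, at 5.72% of tested genes in A4573-R and 10.3% in TC-71-R, and they included 1 member (PMAIP1) in A4573-R and 4 members (BCL2L1, BAX, BCL2L11 and PMAIP1) in TC-71-R. That scale understates genes with few CPM, and BBC3 in A4573-R, with a ratio of mean CPM of 2.39, had a log2 change of 0.76 and is not in this count. The median log2 fold change of the 9 members was 0.10 in A4573-R, beside 0.02 over all tested genes, and -0.56 in TC-71-R, beside -0.00 over all tested genes. The median size of change, without sign, was 0.18 for the members and 0.25 for all tested genes in A4573-R, and 0.64 for the members and 0.33 for all tested genes in TC-71-R.

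The change differed between the lines for 8 of the 9 members by a test of the difference itself (limma), 6 of them more positive in A4573-R and 2 more negative, and for 78.1% of all tested genes (40.2% more positive, 37.9% more negative). On the same scale the changes differed by 2-fold or more for 4 members (BCL2L1, BCL2L11, PMAIP1 and BBC3) and for 16.5% of tested genes. Opposite directions, each past the threshold, were seen for 3 members (BAK1, PMAIP1 and BBC3), as for 26.2% of all tested genes. The shares for any difference and for opposite directions are near those over all genes. The share at 2-fold or more, 4 of 9 members, lies above the 16.5% over all tested genes, and this excess was not tested. BAX, higher in both resistant lines, and BCL2, lower in both, were the 2 members called in both lines with the same sign.

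**Figure D1:**
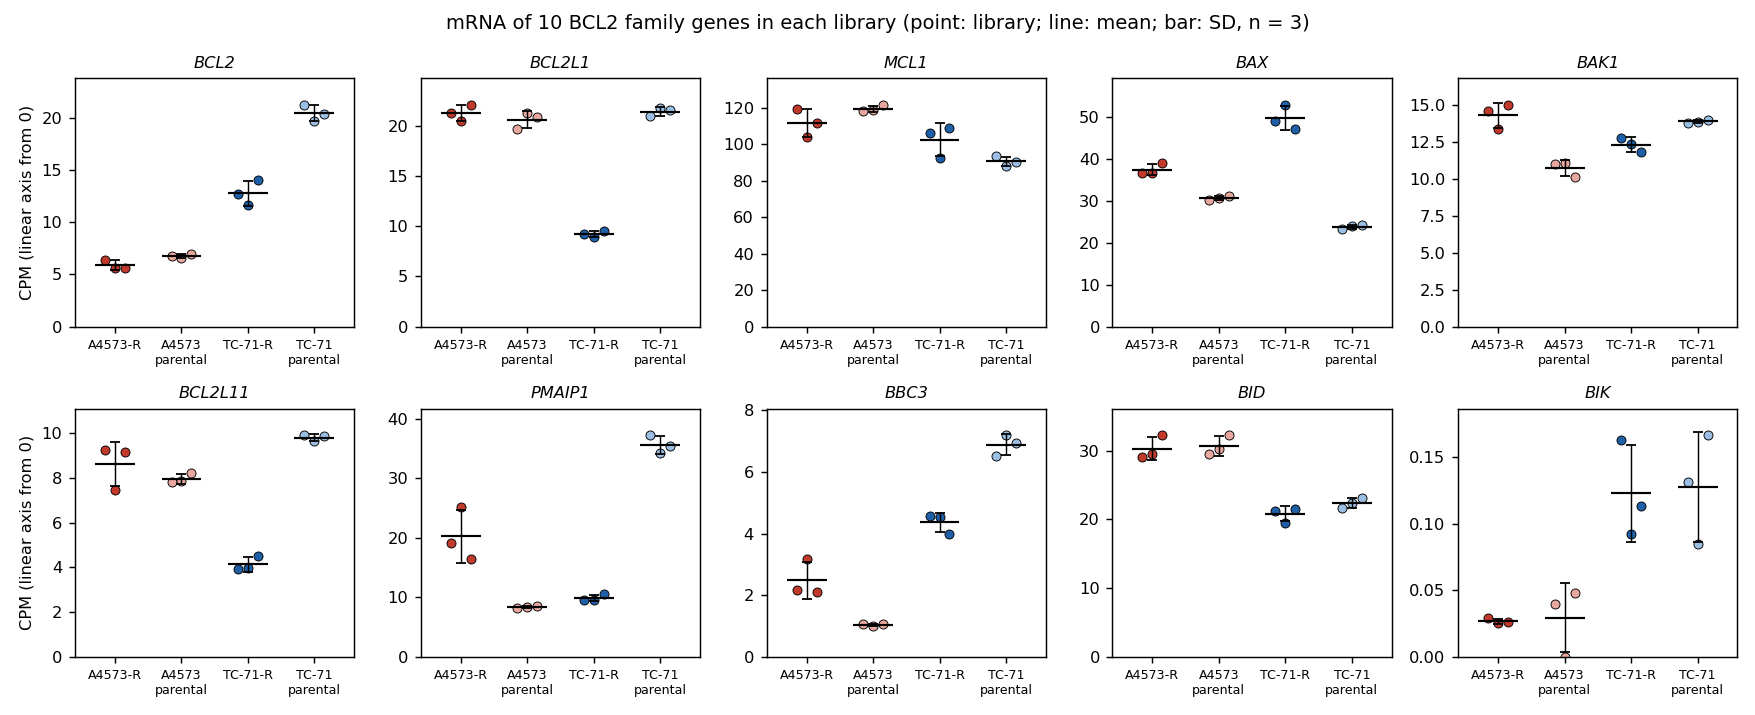
CPM of each of the 10 genes by library on a linear axis from 0, with 1 point per library, a line for the group mean and a bar for the SD (n = 3). PMAIP1 averages 20.2 CPM in A4573-R and 8.35 CPM in A4573 parental, and 9.90 CPM in TC-71-R and 35.6 CPM in TC-71 parental, while BAX is above its parental group in both resistant lines.

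Among the pro-survival genes, BCL2L1 showed the largest change, and in TC-71-R only did it pass the test. BCL2L1 (chr20:31664452-31723989, minus strand, GRCh38) encodes BCL-XL, which guards the mitochondrial membrane against BAX and BAK1. It had 21.2, 20.4 and 22.0 CPM in A4573-R, against 19.7, 21.2 and 20.8 CPM in A4573 parental. In TC-71-R it had 9.21, 8.90 and 9.55 CPM, against 20.9, 21.7 and 21.5 CPM in TC-71 parental. The 3 TC-71-R libraries lay far below every other library, while the other 3 groups overlapped. The ratio of the mean CPM was 0.431 in TC-71-R over TC-71 parental and 1.03 in A4573-R over A4573 parental. BCL2L1 fell by 1.13 on the log2 scale in TC-71-R (SE 0.0438, limma adjusted p = 2.68e-12), and its log2 change in A4573-R was 0.04 (limma adjusted p = 0.404). The difference between these changes was 1.17 (limma adjusted p = 1.37e-10). The antisense gene ABALON covers 1424 of the 3314 exon bases of BCL2L1 and was itself at 0.302 to 0.351 CPM in TC-71-R and 0.775 to 0.898 CPM in TC-71 parental. Reads in the shared bases cannot be assigned if the kit did not keep the strand, which the sources used here do not say. Gene counts also do not separate the long from the short splice form, whose products act in opposite ways.

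BCL2 (chr18:63123346-63320128, minus strand), the founding pro-survival gene, was lower in both resistant lines. It had 6.42, 5.58 and 5.61 CPM in A4573-R, against 6.78, 6.57 and 6.95 CPM in A4573 parental. It had 12.7, 11.6 and 14 CPM in TC-71-R, against 21.3, 19.7 and 20.4 CPM in TC-71 parental. The groups did not overlap in either line, and both TC-71 groups lay above both A4573 groups. BCL2 fell by 0.64 on the log2 scale in TC-71-R (SE 0.0642, limma adjusted p = 1.99e-07), to a ratio of mean CPM of 0.625. In A4573-R it fell by 0.18 (limma adjusted p = 0.0208), a smaller change than in TC-71-R by 0.46 (limma adjusted p = 0.000259). The call in A4573-R was lost without A4573 parental replicate 3 (adjusted p = 0.0666), without A4573-R replicate 2 (0.0728) and without A4573-R replicate 3 (0.0718), as it was without the filter on low values (0.0511), all by limma.

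MCL1 (chr1:150574551-150579738, minus strand), a short-lived pro-survival protein that NOXA binds with preference, had the highest level per length of the members in every library. Its level was 119, 104 and 112 CPM in A4573-R, against 118, 119 and 121 CPM in A4573 parental. In TC-71-R it was 106, 92.5 and 109 CPM, against 93.3, 88.3 and 90.4 CPM in TC-71 parental. The TC-71 groups overlapped, as did the A4573 groups. MCL1 rose by 0.17 on the log2 scale in TC-71-R (limma adjusted p = 0.0111), a call that was lost without TC-71-R replicate 1 (adjusted p = 0.0517), without TC-71-R replicate 3 (0.0607), and with library sizes taken from named genes (0.108). Its log2 change in A4573-R was -0.10 (limma adjusted p = 0.126), and the changes differed by -0.27 (limma adjusted p = 0.00577). MCL1 in A4573-R passed the test under TMM scaling (adjusted p = 0.0411), without A4573-R replicate 1 (0.0343) and without TC-71-R replicate 2 (0.0447).

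Both effectors rose in A4573-R, whereas in TC-71-R BAX rose and BAK1 fell. BAX (chr19:48954815-48961798, plus strand) is held in the cytosol until activated. It had 36.7, 36.6 and 39.1 CPM in A4573-R, against 30.1, 30.7 and 31.2 CPM in A4573 parental. It had 49.0, 52.9 and 47.2 CPM in TC-71-R, against 23.2, 24.0 and 24.2 CPM in TC-71 parental. Every resistant library was above every parental library, of either line. BAX rose 2.09-fold in mean CPM in TC-71-R (log2 1.03, SE 0.0429, limma adjusted p = 6.15e-12) and 1.22-fold in A4573-R (log2 0.28, limma adjusted p = 2.87e-05). The rise was smaller in A4573-R than in TC-71-R by 0.75 on the log2 scale, a difference of -0.75 with limma adjusted p = 1.92e-08.

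BAK1 (chr6:33572547-33580293, minus strand), the effector that sits in the mitochondrial membrane, had 14.6, 13.4 and 15 CPM in A4573-R, against 11, 11.1 and 10.1 CPM in A4573 parental. In TC-71-R it had 12.8, 12.4 and 11.8 CPM, against 13.8, 13.9 and 14 CPM in TC-71 parental. The groups did not overlap in either line. BAK1 rose by 0.38 on the log2 scale in A4573-R (SE 0.0510, limma adjusted p = 6.28e-06) and fell by 0.16 in TC-71-R (limma adjusted p = 0.00954).

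**Figure D2:**
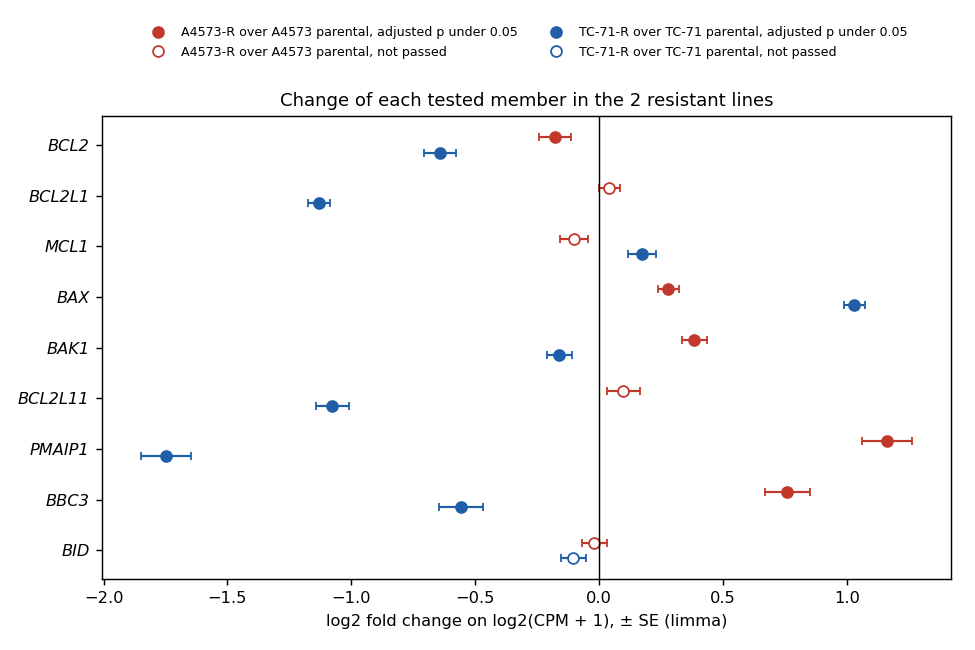
log2 fold change of each tested member in A4573-R against A4573 parental and in TC-71-R against TC-71 parental, with bars for the standard error from limma. PMAIP1 lies at 1.16 in A4573-R and -1.75 in TC-71-R, and BAX lies above 0 in both.

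Among the BH3-only genes, PMAIP1 and BBC3 moved together and in opposite directions in the lines, both higher in A4573-R and both lower in TC-71-R. PMAIP1 (chr18:59899948-59904306, plus strand) encodes NOXA, a stress-induced protein that binds MCL1 and promotes its destruction. It had 19.2, 25.2 and 16.4 CPM in A4573-R, against 8.15, 8.39 and 8.51 CPM in A4573 parental. It had 9.58, 9.61 and 10.5 CPM in TC-71-R, against 37.2, 34.3 and 35.4 CPM in TC-71 parental. The groups lay apart in each line, with the TC-71 parental libraries above all others. PMAIP1 rose 2.42-fold in A4573-R in mean CPM (log2 1.16, SE 0.100, limma adjusted p = 5.08e-08). In TC-71-R it was 3.60-fold lower (log2 -1.75, limma adjusted p = 2.65e-10). The difference between the changes, 2.91 on the log2 scale, was the largest among the members (limma adjusted p = 5.47e-11).

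BBC3 (chr19:47220822-47232766, minus strand) encodes PUMA, which binds all of the pro-survival proteins. It had 2.17, 3.17 and 2.11 CPM in A4573-R, against 1.05, 1.00 and 1.06 CPM in A4573 parental. It had 4.58, 4.52 and 4.0 CPM in TC-71-R, against 6.54, 7.20 and 6.94 CPM in TC-71 parental. The groups were apart in each line. BBC3 rose 2.39-fold in mean CPM in A4573-R (log2 0.76, limma adjusted p = 1.73e-06) and fell to a ratio of 0.634 in TC-71-R (log2 -0.56, limma adjusted p = 3.66e-05). The log2 change in A4573-R depends on the pseudocount at this low level, being 1.07 with 0.25, 0.31 with 5 and 1.27 in the edgeR test on reads, and it was past the threshold in each.

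A4573-R replicate 2 had the highest PMAIP1 and BBC3 of its group, and it also had the highest CEBPB (97.9 CPM), ATF3 (75.4 CPM) and DDIT3 (129 CPM), genes of the cellular stress response. The part of this library in the group means was not tested beyond leaving it out. Without each library in turn, the log2 change in A4573-R was 1.00 to 1.30 for PMAIP1 and 0.62 to 0.84 for BBC3.

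BCL2L11 (chr2:111119378-111168447, plus strand) encodes BIM, which binds every pro-survival protein and, in many cells, drives death after loss of growth signals. It had 9.26, 7.48 and 9.16 CPM in A4573-R, against 7.81, 7.85 and 8.23 CPM in A4573 parental. It had 3.94, 3.96 and 4.51 CPM in TC-71-R, against 9.92, 9.65 and 9.87 CPM in TC-71 parental. The A4573 groups overlapped, and the TC-71-R libraries were the lowest of all. BCL2L11 fell to a ratio of 0.421 in TC-71-R (log2 -1.08, limma adjusted p = 8.47e-10). Its log2 change in A4573-R was 0.10 (limma adjusted p = 0.205), and 0.19 with adjusted p = 0.00791 without A4573-R replicate 2. The non-coding gene MIR4435-2HG, on the other strand, shares 727 of the 6658 exon bases of BCL2L11, and it was at 2.19 to 2.35 CPM in TC-71-R and 4.27 to 4.37 CPM in TC-71 parental. Gene counts do not tell apart the splice forms of BIM, which differ in potency.

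BID (chr22:17734138-17774770, minus strand) links death receptors to mitochondria once caspase 8 has cut it. It had 29.1, 29.4 and 32.2 CPM in A4573-R, against 29.4, 30.3 and 32.2 CPM in A4573 parental. It had 21.3, 19.5 and 21.6 CPM in TC-71-R, against 21.7, 22.4 and 23.1 CPM in TC-71 parental. The A4573 groups overlapped and the TC-71 groups did not, by a small gap. Its log2 change was -0.02 in A4573-R (limma adjusted p = 0.764) and -0.10 in TC-71-R (limma adjusted p = 0.0721), neither past the threshold. BIK (chr22:43110748-43129712, plus strand) had 2, 2 and 2 reads in A4573-R, 3, 0 and 4 in A4573 parental, 11, 7 and 11 in TC-71-R and 11, 7 and 15 in TC-71 parental. With so few reads no fold change is given.

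The pattern of PMAIP1 and BBC3 in the lines was set beside a list of 10 genes for factors known to act on the transcription of BH3-only genes. In A4573-R, 8 of the 10 were higher and 2 lower, and in TC-71-R, 3 were higher, 5 lower and 2 did not pass. The share called over all tested genes was 72.5% in A4573-R and 78.5% in TC-71-R. The median log2 change of the list was 0.71 in A4573-R, beside 0.02 over all tested genes, and -0.11 in TC-71-R, beside -0.00. ATF3, a stress-induced repressor and activator, averaged 51.4 ± 20.9 CPM in A4573-R and 5.26 CPM in A4573 parental, and 11.9 CPM in TC-71-R and 51.8 CPM in TC-71 parental (n = 3 each). ATF3 rose by 3.00 on the log2 scale in A4573-R and fell by 2.03 in TC-71-R (limma adjusted p = 2.99e-10 and 1.76e-08). JUN, a subunit of AP-1, averaged 57.4 CPM in A4573-R and 10.7 CPM in A4573 parental, and 36.7 CPM in TC-71-R and 58.1 CPM in TC-71 parental, with log2 changes of 2.32 and -0.65 (limma adjusted p = 1.42e-13 and 1.79e-07). CEBPB, a partner of ATF4, averaged 76.3 ± 19.1 CPM in A4573-R and 40.6 CPM in A4573 parental, and 81.4 CPM in TC-71-R and 232 CPM in TC-71 parental, with log2 changes of 0.87 and -1.50 (limma adjusted p = 4.54e-06 and 5.71e-09). These 3 genes thus moved the same way as PMAIP1 and BBC3 in each line.

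DDIT3, which encodes CHOP of the unfolded protein response, and ATF4 were named after their values were seen. DDIT3 averaged 82.9 ± 39.6 CPM in A4573-R and 27.5 CPM in A4573 parental, and 115 ± 20.9 CPM in TC-71-R and 436 CPM in TC-71 parental. Its log2 change was 1.46 in A4573-R and -1.93 in TC-71-R (limma adjusted p = 1.25e-05 and 4.53e-07). ATF4, by contrast, was higher in both resistant lines, with log2 changes of 0.76 in A4573-R and 0.16 in TC-71-R (limma adjusted p = 1.93e-08 and 0.0271). FOXO1, a factor that can activate BCL2L11, averaged 2.74 CPM in A4573-R and 8.84 CPM in A4573 parental, and 11.6 CPM in TC-71-R and 10.4 CPM in TC-71 parental. TP73, a transcription factor gene, rose in both, by 0.65 in A4573-R and 1.24 in TC-71-R on the log2 scale (limma adjusted p = 8.51e-08 and 2.94e-11). Whether these factors play a part in the changes of PMAIP1 and BBC3 was not tested.

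**Figure D3:**
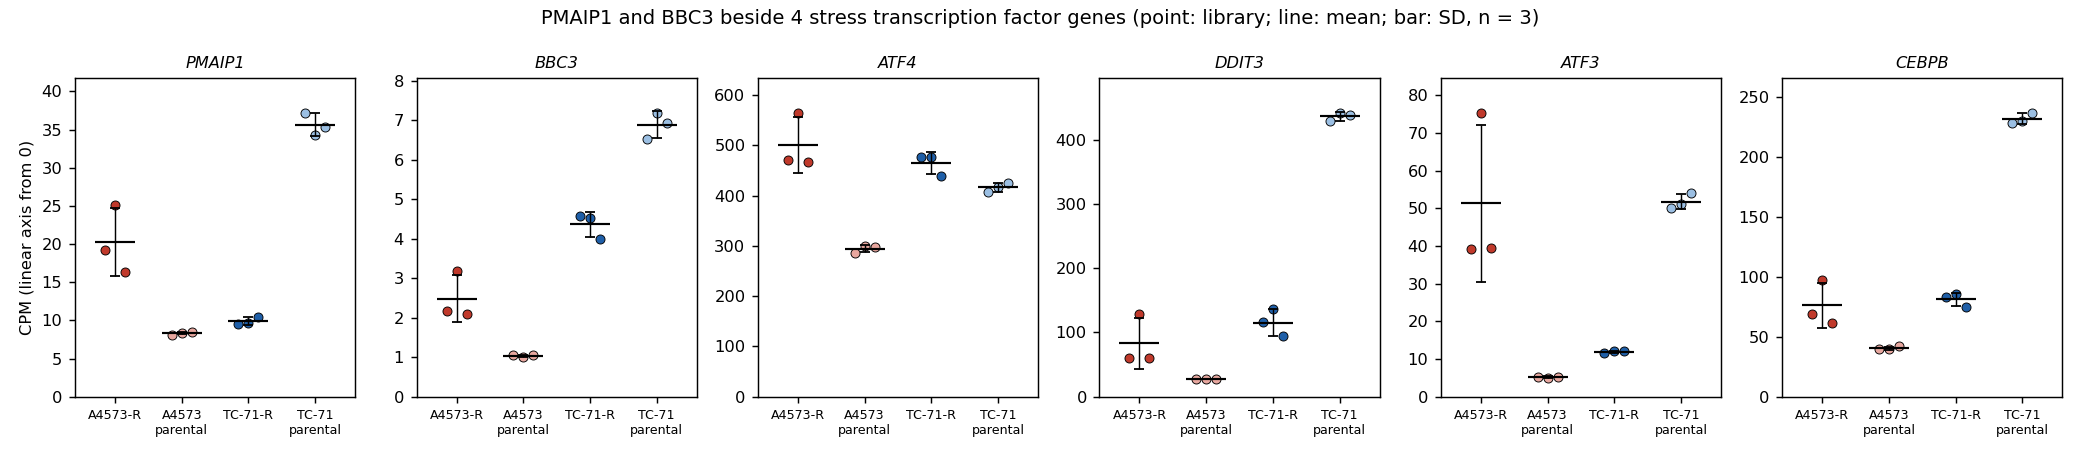
CPM by library of PMAIP1, BBC3 and the stress factor genes ATF4, DDIT3, ATF3 and CEBPB, on linear axes from 0, with group means and SD bars (n = 3). PMAIP1, BBC3, DDIT3, ATF3 and CEBPB are above their parental group in A4573-R and below it in TC-71-R, and ATF4 is above it in both.

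The 3 genes whose profile over the 12 libraries lay nearest to that of PMAIP1, by Euclidean distance between centred log2(CPM + 1) values, were NCOA7 (distance 0.331), VLDLR (0.623) and ADGRL3 (0.647). NCOA7 averaged 23.5 CPM in A4573-R and 9.16 CPM in A4573 parental, and 13.0 CPM in TC-71-R and 40.5 CPM in TC-71 parental. VLDLR averaged 5.60 CPM in A4573-R and 1.40 CPM in A4573 parental, and 1.94 CPM in TC-71-R and 7.54 CPM in TC-71 parental. ADGRL3 averaged 2.22 CPM in A4573-R and 0.816 CPM in A4573 parental, and 1.05 CPM in TC-71-R and 6.09 CPM in TC-71 parental. The libraries share 4 groups, and the likeness is a description only.

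In TC-71 parental against A4573 parental, 8 of the 9 members passed the test, 5 higher and 3 lower, as did 89.9% of all tested genes (45.9% higher, 44.1% lower). The difference was 2-fold or more on the log2(CPM + 1) scale for 3 members and for 30.6% of tested genes, and libraries did not overlap for 8 members and for 92.5%. These counts are near the background. PMAIP1 and BBC3 were the most different, 4.27-fold and 6.65-fold higher in TC-71 parental (log2 1.97 and 1.95, limma adjusted p = 2.15e-11 and 5.61e-12), and BCL2 was 3.02-fold higher (log2 1.47, limma adjusted p = 3.06e-12). BCL2L1, with a log2 difference of 0.05, did not pass (limma adjusted p = 0.263), but it passed with library sizes taken from named genes (log2 0.12, adjusted p = 0.0129). MCL1, BAX and BID were lower in TC-71 parental, by log2 -0.39, -0.35 and -0.44. In TC-71-R against A4573-R, PMAIP1 was lower in TC-71-R (log2 -0.94, limma adjusted p = 2.40e-07), as were BCL2L11 (log2 -0.90, adjusted p = 3.23e-09) and BCL2L1 (log2 -1.12, adjusted p = 7.58e-13), and BAX was higher (log2 0.40, adjusted p = 2.83e-07). The signs for PMAIP1, BCL2L11 and BAX are opposite to those between the parental lines. BAK1 also turned, from log2 0.34 between the parental lines to -0.20 between the resistant lines (limma adjusted p = 1.03e-05 and 0.00175). Of the 9 members, 8 passed in this comparison, 3 higher and 5 lower in TC-71-R, as did 89.2% of all tested genes (43.7% higher, 45.5% lower). On the log2(CPM + 1) scale the difference was 2-fold or more for 2 members (BCL2 and BCL2L1) and for 29.8% of tested genes, and libraries did not overlap for 8 members and for 87.5%. By the ratio of mean CPM, PMAIP1 (0.489) and BCL2L11 (0.479) also differed by more than 2-fold.

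Per length of exon, MCL1 was the highest member in every group, at 25.5 CPM per kb in A4573-R, 27.3 in A4573 parental, 23.5 in TC-71-R and 20.7 in TC-71 parental. Next came BAX in A4573-R (14.5 CPM per kb), in A4573 parental (11.9) and in TC-71-R (19.2), but PMAIP1 in TC-71 parental (15.9), where BAX was at 9.20. In A4573-R, BID, BAK1 and BCL2L1, at 6.81, 6.47 and 6.41 CPM per kb, overlapped between neighbours, and in TC-71 parental BCL2L1 and BAK1 did so at 6.45 and 6.27. In TC-71-R, BID and PMAIP1 overlapped at 4.67 and 4.43 CPM per kb. BCL2 was low for its length in every group, at 0.499 CPM per kb in A4573-R, 0.575 in A4573 parental, 1.09 in TC-71-R and 1.74 in TC-71 parental. The exon lengths come from all annotated exons, so long transcripts that are not used lower these values.

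The balance was described for the members only, with no test. It was the sum of the 3 pro-survival members over the sum of the 7 pro-death members, each in CPM per kb. Other family genes were left out, and how far they would move the ratio was not tested. BCL2L2 averaged 34.6 CPM in TC-71-R and 33.8 CPM in TC-71 parental. It averaged 12.3 CPM in A4573-R and 14.8 CPM in A4573 parental. The BH3-only gene BMF was higher in TC-71-R and lower in A4573-R, the reverse of PMAIP1. BOK, a BAX-like gene, averaged 27.1 CPM in TC-71-R and 12.8 CPM in TC-71 parental. BAD was left out as well. The ratio was 0.835 ± 0.0730 in A4573-R and 1.18 ± 0.00323 in A4573 parental (SD, n = 3 each). It was 0.760 ± 0.0776 in TC-71-R and 0.719 ± 0.00855 in TC-71 parental. All 3 A4573-R libraries, at 0.756 to 0.901, were below all A4573 parental libraries, while the TC-71-R libraries, at 0.674 to 0.825, spanned the TC-71 parental libraries. The log2 difference was -0.50 in A4573 and 0.08 in TC-71. Without division by length the ratio was 1.22 in A4573-R, 1.64 in A4573 parental, 1.23 in TC-71-R and 1.18 in TC-71 parental. Which sum is the larger thus depends on the exon lengths in every group but A4573 parental. The similar ratios in TC-71 hide a change of makeup. The pro-survival sum was 27.3 ± 2.21 CPM per kb in TC-71-R and 28.9 ± 0.521 in TC-71 parental. The pro-death sum was 36.0 ± 0.831 in TC-71-R and 40.2 ± 0.447 in TC-71 parental, and its libraries did not overlap. The effector sum was 24.8 ± 1.23 CPM per kb in TC-71-R and 15.5 ± 0.248 in TC-71 parental, whereas the BH3-only sum was 11.2 ± 0.398 in TC-71-R and 24.8 ± 0.533 in TC-71 parental. BAX made up 53.3% of the pro-death sum in TC-71-R and 22.9% in TC-71 parental, and PMAIP1 12.3% in TC-71-R and 39.6% in TC-71 parental. In A4573 both parts were larger in the resistant line, at 20.9 ± 0.862 in A4573-R and 16.7 ± 0.159 in A4573 parental for effectors and 18.0 ± 1.81 in A4573-R and 12.2 ± 0.445 in A4573 parental for BH3-only genes. MCL1 made up 78.7% of the pro-survival sum in A4573-R, 80.1% in A4573 parental, 85.8% in TC-71-R and 71.7% in TC-71 parental. The sign in TC-71 turns with the members summed, and is -0.92 without MCL1 and -0.46 without PMAIP1.

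A ratio of MCL1 to PMAIP1 per kb, chosen after the values were seen, was 2.92 ± 0.719 in A4573-R and 7.32 ± 0.105 in A4573 parental, and 5.30 ± 0.372 in TC-71-R and 1.30 ± 0.0182 in TC-71 parental. A ratio of BAX to BCL2 per kb, chosen likewise, was 29.2 ± 2.94 in A4573-R and 20.6 ± 0.558 in A4573 parental, and 17.8 ± 2.71 in TC-71-R and 5.29 ± 0.292 in TC-71 parental. The MCL1 to PMAIP1 ratio was thus lower in one resistant line and higher in the other, and the BAX to BCL2 ratio higher in both. Protein levels, which for MCL1 and NOXA depend strongly on stability, were not measured, and in bulk RNA fewer expressing cells and less RNA per cell cannot be told apart.

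**Figure D4:**
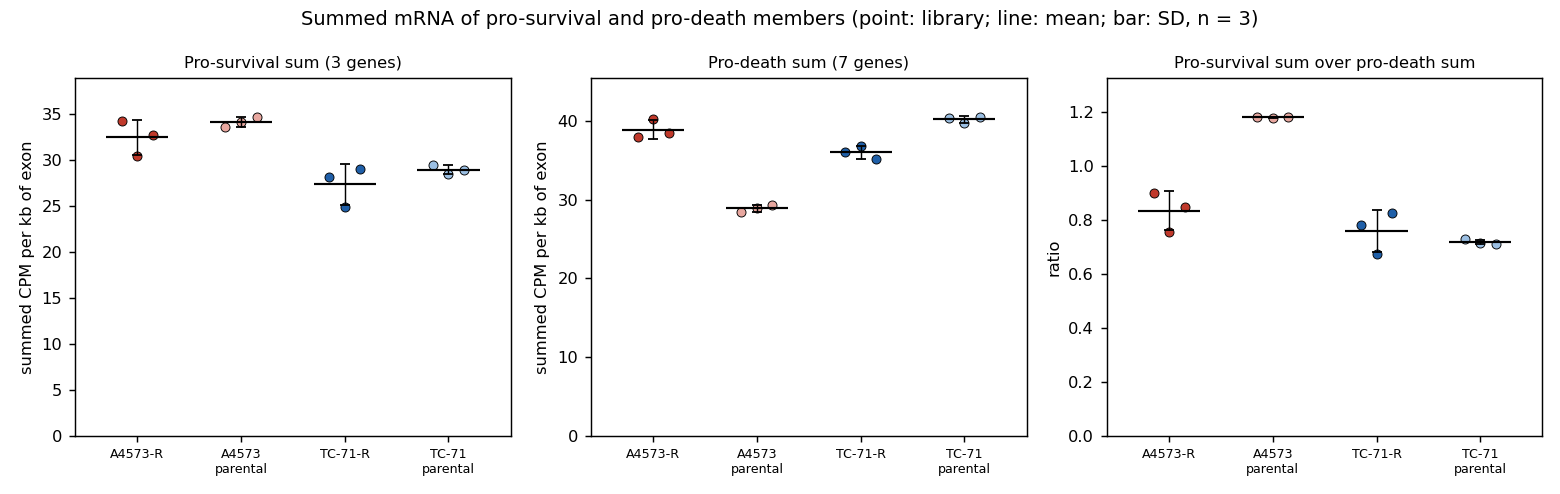
Summed CPM per kb of exon of the pro-survival and the pro-death members, and their ratio, by library with group means and SD bars (n = 3), all axes linear from 0. The mean ratio is 0.835 in A4573-R and 1.18 in A4573 parental, and 0.760 in TC-71-R and 0.719 in TC-71 parental. Which sum is the larger depends on the division by length in every group but A4573 parental.

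Beyond the 10 genes, 11 of 15 other BCL2 family genes were tested. In A4573-R, 9 were higher and 2 lower, and in TC-71-R, 4 were higher, 1 lower and 6 did not pass. Here and for the lists that follow, the share called over all tested genes was 72.5% in A4573-R (38.3% higher, 34.1% lower) and 78.5% in TC-71-R (38.8% higher, 39.6% lower). BMF, a BH3-only gene, averaged 20.2 ± 0.227 CPM in A4573-R and 35.9 ± 1.09 CPM in A4573 parental, and 39.2 ± 2.81 CPM in TC-71-R and 25.5 ± 0.350 CPM in TC-71 parental. It was thus lower in A4573-R and higher in TC-71-R (log2 -0.80 and 0.60, limma adjusted p = 4.34e-10 and 7.21e-09), the reverse of PMAIP1. BNIP3, a mitophagy gene induced by low oxygen, averaged 77.1 ± 12.7 CPM in A4573-R and 33.3 ± 0.768 CPM in A4573 parental, and 20.3 CPM in TC-71-R and 19.8 CPM in TC-71 parental. HRK, a BH3-only gene, was at 1.27, 1.87 and 0.762 CPM in A4573-R and no more than 0.0361 CPM in any A4573 parental library, and at 14.1 CPM in TC-71-R and 14.4 CPM in TC-71 parental. BOK, a BAX-like gene, averaged 27.1 CPM in TC-71-R and 12.8 CPM in TC-71 parental, and rose by 1.03 on the log2 scale (limma adjusted p = 3.89e-09).

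Downstream, all 12 genes of the apoptosome and caspase list were tested, with 6 higher, 3 lower and 3 not passed in A4573-R and 6 higher, 5 lower and 1 not passed in TC-71-R. CASP6 rose in both, to 18.8 CPM in A4573-R against 8.05 CPM in A4573 parental, and to 10.8 CPM in TC-71-R against 6.08 CPM in TC-71 parental. The 3 porin genes had 1 higher and 2 lower in A4573-R and 2 higher and 1 lower in TC-71-R. VDAC2, which is known to hold BAK1 in the membrane, fell by 0.38 on the log2 scale in A4573-R and rose by 0.16 in TC-71-R (limma adjusted p = 7.69e-08 and 0.000557). VDAC3 rose by 1.01 in TC-71-R and by 0.11 in A4573-R (limma adjusted p = 1.28e-11 and 0.0465).

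Of 6 inhibitor of apoptosis genes, 5 were tested, with 2 higher and 3 not passed in A4573-R and 1 higher, 3 lower and 1 not passed in TC-71-R. BIRC5, or survivin, which also serves in mitosis, rose in both, to 172 CPM in A4573-R against 122 CPM in A4573 parental and to 109 CPM in TC-71-R against 46.2 CPM in TC-71 parental. XIAP, which blocks caspases directly, was at 21.1 CPM in TC-71-R and 29.3 CPM in TC-71 parental and fell by 0.46 on the log2 scale (limma adjusted p = 3.15e-06). In the death receptor pathway, which joins the family through BID, 7 of 12 genes were higher, 4 lower and 1 not passed in A4573-R, and 7 higher, 3 lower and 2 not passed in TC-71-R. FAS, a death receptor, was at 1.52 CPM in A4573-R and 12.4 CPM in A4573 parental (log2 -2.42, limma adjusted p = 7.44e-13), and at 1.60 CPM in TC-71-R and 1.86 CPM in TC-71 parental (adjusted p = 0.107). TNFRSF10B, the TRAIL receptor DR5, was at 153 CPM in A4573-R and 93.8 CPM in A4573 parental, and at 115 CPM in TC-71-R and 240 CPM in TC-71 parental, so it rose and fell with PMAIP1 (log2 0.69 and -1.05, limma adjusted p = 2.50e-09 and 1.11e-11). CASP8, which cuts BID, was at 1.39 CPM in A4573-R and 0.311 CPM in A4573 parental, and at 39.6 CPM in TC-71-R and 27.5 CPM in TC-71 parental.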

How the data were processed

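Total RNA from 12 libraries, 3 in each of 4 groups, was sequenced as paired ends. The submitters' processing notes name GRCh38 and, as the authors' tools, edgeR, HTSeq, STAR 2.4 and Trimmomatic. The deposited signal is counts per 1000000 reads on scaled library sizes: each column sums to 0.940 to 1.12 M, and dividing by its own step gave whole reads, within 0.001, for 100% of values. Of 58293 entries, 5 carry no gene name and hold 30.6% to 42.0% of reads. They were not tested as genes, and the depth given above leaves them out. The scaled library sizes behind the CPM, however, take them in. In A4573 parental replicate 1 the scaled size was 75.3 M, against 75.7 M reads over all entries and 48.2 M in named genes. CPM levels and the main tests thus depend on them through library size. Library sizes of named genes, among the alternatives, leave them out. No column of values was left unused.

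Symbols held by several entries were summed. The 14335 genes that reached 1 CPM in 3 or more of the 12 libraries were tested on log2(CPM + 1) with limma 3.58.1 in R 4.3.3, with 1 mean per group, a variance trend and Benjamini-Hochberg adjustment over all tested genes. This scale understates the change of genes with few CPM. The design had assumed plain CPM. The recovered reads were also tested with edgeR 4.0.16 (quasi-likelihood), which called 10447 genes in A4573-R and 11319 in TC-71-R, and with DESeq2 1.42.0, which called 10306 and 11180. The limma and edgeR fits were also run on simulated counts in which 200 genes were changed and all genes shared 1 spread. These settings differ from the data, and the outcome is not reported here. Positions and exon lengths come from GENCODE release 29. Exact tests on 3 against 3 libraries were not used, since limma shares its spread over genes.

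The members, gene lists and tests were chosen with earlier results of these data known. Named are all members, up to 3 genes per list and change with the lowest adjusted p past the threshold and at least 1 CPM, and the 3 genes nearest to the member of widest range. Alternatives were other pseudocounts, filters, scalings and tools, a replicate block, and leaving out each library or each member. Some genes of the lists are not reported here.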

Additional observations from a re-analysis of the deposited data

Results flagged for a closer look

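For the genes below the change in A4573-R differed from the change in TC-71-R by the test of the difference in limma. Values are the change in A4573-R minus the change in TC-71-R on the log2 scale. The highest adjusted p among them was 0.00624, for BCL2L2.

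Among the BCL2 family members the difference was 2.91 for PMAIP1, 1.32 for BBC3, 1.17 for BCL2L11, 1.17 for BCL2L1, 0.54 for BAK1 and 0.46 for BCL2. It was -0.75 for BAX and -0.27 for MCL1.

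In other family genes it was 1.16 for HRK, 1.14 for BNIP3, -0.28 for BCL2L2 (named after its values were seen), -0.60 for BOK and -1.40 for BMF.

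Genes acting downstream or beside the family gave 0.39 for CASP6, 0.36 for CASP8, 0.54 for XIAP, 0.53 for HUWE1, 1.75 for TNFRSF10B, -2.27 for FAS, -0.73 for BIRC5, -1.06 for CDC20, -0.53 for VDAC2 and -0.91 for VDAC3.

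The factor genes gave 5.02 for ATF3, 3.39 for DDIT3, 2.97 for JUN, 2.37 for CEBPB, 0.60 for ATF4, -0.58 for TP73 and -1.55 for FOXO1.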

How the results depend on the processing

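Of 981 alternative values for single genes, 957 kept their direction and their side of the threshold, 14 passed the threshold newly, 7 lost it and 3 turned sign. All 3 were BID in A4573-R, where the log2 change was -0.0627 to 0.0176 when each library was left out, and above 0 without A4573 parental replicate 3, A4573-R replicate 1 (0.0083) or A4573-R replicate 2 (5.3e-05). BID in TC-71-R passed under library sizes of named genes (adjusted p = 0.00397, limma) and 3 other alternatives.

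The log2 balance difference in A4573 was -0.41 without MCL1, -0.32 without PMAIP1 and -0.62 without BID. In TC-71 it was 0.28 without BCL2L1, 0.80 without BAX, -0.92 without MCL1, -0.46 without PMAIP1 and -0.16 as a difference of mean log2(CPM + 1) values. The cause was not tested. Without each library in turn it was -0.56 to -0.43 in A4573 and 0.01 to 0.16 in TC-71.

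Leaving out each library, 9719 to 10577 genes were called in A4573-R, 10584 to 11351 in TC-71-R, 10694 to 11076 for the difference of changes, 12417 to 12863 between parental lines and 12399 to 12676 between resistant lines. Members called were 4 to 6 in A4573-R, 7 to 9 in TC-71-R, 8 in the difference and between parental lines, and 8 to 9 between resistant lines.

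With a replicate block, 10422 genes were called in A4573-R and 11285 in TC-71-R, with 5 and 9 members. Deviations of libraries with the same replicate number correlated at -0.0974 to 0.165 (18 pairs), and those with different numbers at -0.181 to 0.157 (36 pairs). Replicate numbers were therefore not treated as pairs in the main fit. Whether libraries with the same number share a batch was not tested further. No scaling moved the median of all genes by over 0.1. At 0 to 15 reads per library, BIK is limited by depth.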

Other observations

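Of 7 genes that add ubiquitin to MCL1 or remove it, 4 were higher, 2 lower and 1 not passed in A4573-R, and 2 were higher, 2 lower and 3 not passed in TC-71-R. Over all tested genes 72.5% were called in A4573-R and 78.5% in TC-71-R. HUWE1, also known as MULE, a ubiquitin ligase for MCL1, averaged 356 CPM in A4573-R and 290 CPM in A4573 parental, and 271 CPM in TC-71-R and 319 CPM in TC-71 parental. CDC20, an activator of the ligase of mitosis, rose to 211 CPM in A4573-R against 161 CPM in A4573 parental and to 108 CPM in TC-71-R against 39.1 CPM in TC-71 parental.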
